A study of Homo sapiens with 2 samples.

Results

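The genes described here are 3 receptors of the epidermal growth factor (EGF) receptor family, 5 of their ligands and a pair of feedback inhibitors. They were chosen by name: EGFR, ERBB2 and ERBB3 as receptors, EREG, AREG, HBEGF, TGFA and NRG1 as ligands, and ERRFI1 and LRIG1 as inhibitors. All 10 names were found, each in a single chosen row, among 58233 gene rows, and all 10 had at least 100 counts over both libraries. The material was RNA of MDA-MB-231, a human breast cancer cell line of mesenchymal character, used here to compare cells with and without depletion of MPP7, a scaffold protein of cell junctions. The shCon library came from cells given lentivirus with a control hairpin and the shMPP7 library from cells given lentivirus with a hairpin against MPP7. Both cultures took virus at a multiplicity of infection of 10, given new medium after 12 h, viewed by fluorescence microscopy at 72 h and selected in puromycin for 7 days, so the controls also carried a virus and had passed selection. The sources used here do not say whether the selected cells were clones or a pool. There was 1 library per group, so every difference below is between 2 libraries, no test between conditions was possible, and the intervals given cover counting error only. In a bulk library, fewer cells with a transcript and less of it per cell cannot be told apart.

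Receptors of this family are tyrosine kinases that pair on the cell surface when a ligand binds, and they feed the RAS-ERK and PI3K-AKT pathways. Their ligands are made as membrane-bound precursors and released by proteases of the ADAM family. Epiregulin, amphiregulin, heparin-binding EGF-like growth factor and transforming growth factor alpha bind EGFR, while neuregulin 1 binds ERBB3 and ERBB4. ERBB2 has no known ligand of its own and serves as the preferred partner of the others, and ERBB3 has a weak kinase and signals through its partners. Active receptors induce inhibitors that act back on them, of which ERRFI1 (MIG6) binds the kinase domain of EGFR and LRIG1 promotes receptor degradation. EGFR is known for high expression in breast cancers that lack hormone receptors, the class to which MDA-MB-231 belongs.

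The libraries held 23928620 (shCon) and 24513089 (shMPP7) estimated counts, with 20451 and 20142 genes above 0. MPP7 itself was low, with 42 counts in shCon (95% Poisson interval 30.3 to 56.8) and 21 in shMPP7 (13.0 to 32.1), lower in the library with the hairpin against it. Of the markers of the line, the mesenchymal filament gene VIM stood at 2791 and 3317 FPKM (fragment counts scaled for transcript length and sequencing depth) and the surface receptor gene CD44 at 1088 and 1129 FPKM. The epithelial cadherin gene CDH1 had 3 counts and 1 count, the oestrogen receptor gene ESR1 3 and 0, the progesterone receptor gene PGR 5 and 3, and the leukocyte gene PTPRC 0 and 1. The fibroblast gene COL1A2 had 0 and 5 counts and the endothelial gene PECAM1 68 and 73, while ZEB1, a mesenchymal transcription factor gene, had 767 and 657. The labelled line was thus met by its markers, and those of leukocytes and fibroblasts were at or near 0.

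The members kept nearly the same order of levels in both libraries. In FPKM, which is scaled by transcript length and so allows genes to be set side by side, 9 of the 10 genes lay between 11.5 and 62.7 in shCon and between 9.18 and 63.0 in shMPP7. ERBB3 was the exception at 0.647 and 0.856 FPKM. The inhibitor gene ERRFI1 had the highest level in both libraries, at 62.7 and 63.0 FPKM, followed by HBEGF at 49.0 and 58.1 FPKM. The receptor genes ERBB2 and EGFR, the ligand gene TGFA and the ligand gene NRG1 came next, within 22.4 to 28.7 FPKM in shCon and 24.4 to 30.6 FPKM in shMPP7. LRIG1, AREG and EREG followed in that order in both libraries. Within shCon, the counting intervals of the FPKM levels overlapped between the neighbours ERBB2 and EGFR, EGFR and TGFA, and NRG1 and LRIG1. Within shMPP7 they overlapped between NRG1 and EGFR and between EGFR and TGFA. The order among those genes is therefore not settled at this depth, and NRG1 ranked 6 in shCon and 4 in shMPP7 between the libraries.

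**Figure D1:**
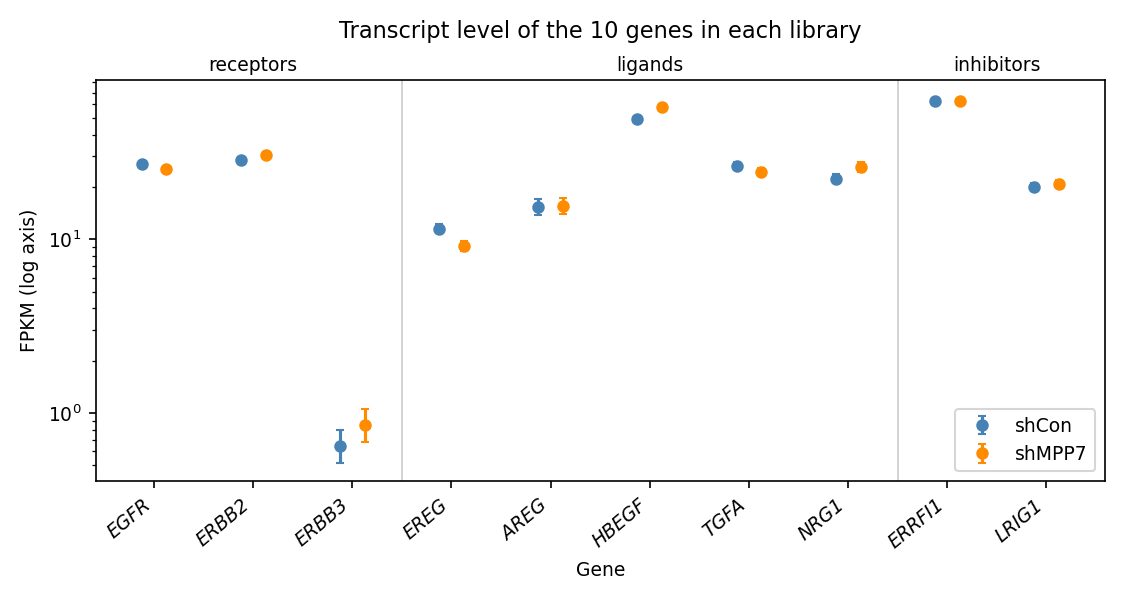
FPKM (log axis) of each of the 10 genes in the shCon library (blue) and the shMPP7 library (orange), grouped as receptors, ligands and inhibitors. Points are the deposited values and bars the 95% Poisson intervals of the counts on the FPKM scale; ERBB3 lies below 1 FPKM in both libraries, and HBEGF is higher and EREG lower in shMPP7.

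The ratios of the 10 genes between the libraries were small, and the largest was a lower level of EREG in shMPP7. Ratios are given in CPM, counts scaled to the same library size, as shMPP7 over shCon, with an exact 95% interval. The size rule called a gene lower at a ratio of 0.8 or less and higher at a ratio 25% or more above 1. A single member, EREG, was lower by this rule, where 7.47% of 12155 genes with at least 100 counts were. None was higher by it, where 3.06% of all genes were. The interval lay below 1 for 4 members (EGFR, EREG, TGFA and ERRFI1), against 21.5% of all genes, and above 1 for 2 members (ERBB2 and HBEGF), against 13.8% of all genes. The other 4 members (ERBB3, AREG, NRG1 and LRIG1) had an interval that included 1. An interval narrows with counts, so for genes with 5000 and more counts, which include EGFR, ERBB2, HBEGF and ERRFI1, the background was higher, with 23.9% below 1 and 30.3% above it. For genes with 1000 to under 5000 counts, which include EREG, TGFA, NRG1 and LRIG1, it was 25.0% below and 12.9% above. The median log2 CPM ratio of the 10 members was -0.05, and over all genes tested it was -0.02. Members thus lay on both sides of 1.

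**Figure D2:**
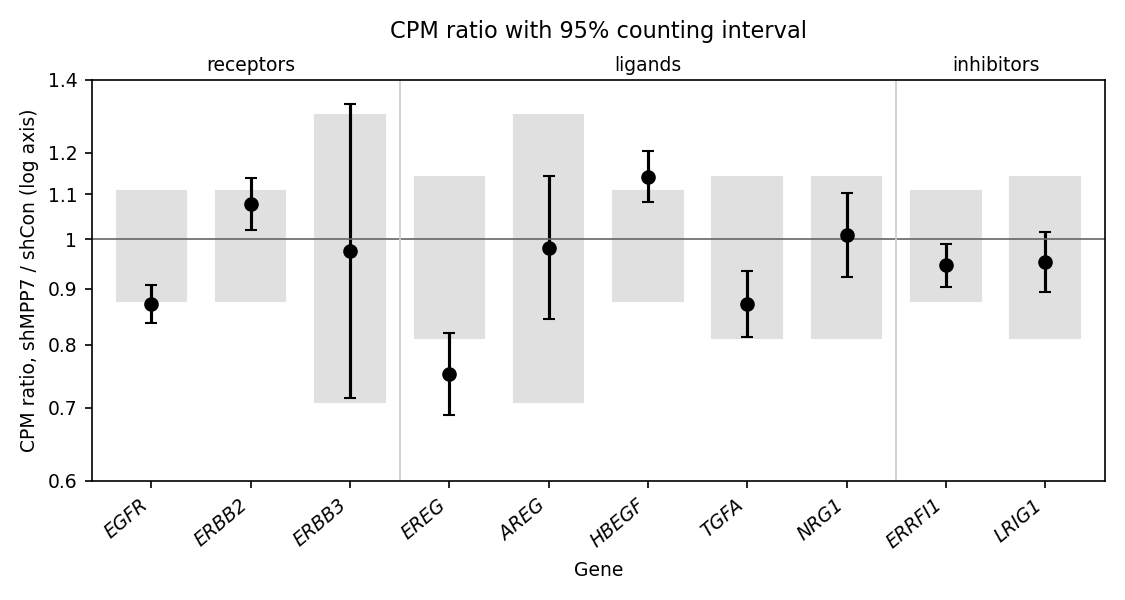
CPM ratio of shMPP7 over shCon (log axis) for each gene, with its exact 95% counting interval. Grey boxes span the 5th to the 95th percentile of the ratio over all genes in the same band of summed counts; EREG lies below its box, EGFR just below the edge at 0.877, and HBEGF above the edge at 1.11.

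Among the receptors, EGFR was lower and ERBB2 slightly higher in the shMPP7 library. EGFR (ENSG00000146648, protein coding) is on the plus strand of chromosome 7, at positions 55019021 to 55211628 of GRCh38. It had 5067 counts in shCon (4928 to 5208) and 4523 in shMPP7 (4392 to 4657). These intervals did not overlap, and the CPM ratio was 0.871 (0.837 to 0.907). Of the 2132 genes with 5000 and more counts, 4.13% had a ratio as low as that of EGFR. In FPKM the difference was smaller, from 27.2 to 25.5, and after subtraction of a fitted length and GC trend the ratio was 0.937 (0.900 to 0.976).

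ERBB2, the receptor that partners the others, had 2442 counts in shCon and 2695 in shMPP7. The gene lies on chromosome 17, positions 39687914 to 39730426, on the plus strand. Its CPM ratio was 1.08 (1.02 to 1.14), and 11.6% of genes with 5000 and more counts had a ratio at least as high. Exons of ERBB2 share 571 bases with MIEN1 and 194 bases with PGAP3 on the opposite strand. MIEN1 had 715 and 762 counts and PGAP3 304 and 313. The sources used here do not say whether the counting used strand, so reads from such stretches may have been counted for either gene, and their part in the ERBB2 ratio was not tested.

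ERBB3, the receptor with the weak kinase, was barely expressed. It lies on chromosome 12, positions 56076799 to 56103505, on the plus strand, and had 86 counts in each library (68.8 to 106). The CPM ratio was 0.976 (0.715 to 1.33), so a difference within that interval was not detectable at this depth. Counted together, the receptors had a CPM ratio of 0.939 (0.909 to 0.970), while their summed FPKM was 56.5 in shCon and 57.0 in shMPP7. The balance between them moved from EGFR towards ERBB2. EGFR made up 66.7% of the receptor counts in shCon (exact binomial interval 65.6% to 67.8%) and 61.9% in shMPP7 (60.8% to 63.0%), and the share of ERBB2 counts went from 32.2% (31.1% to 33.2%) to 36.9% (35.8% to 38.0%). The odds of an ERBB2 count against an EGFR count were 1.24 times as high in shMPP7 (1.15 to 1.32), a value in which the scaling of the libraries cancels. The length and GC trend does not cancel in it. With that trend removed the ratios lay closer together, at 0.937 for EGFR and 1.06 (1.01 to 1.12) for ERBB2. This pair was chosen after the values were seen.

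**Figure D3:**
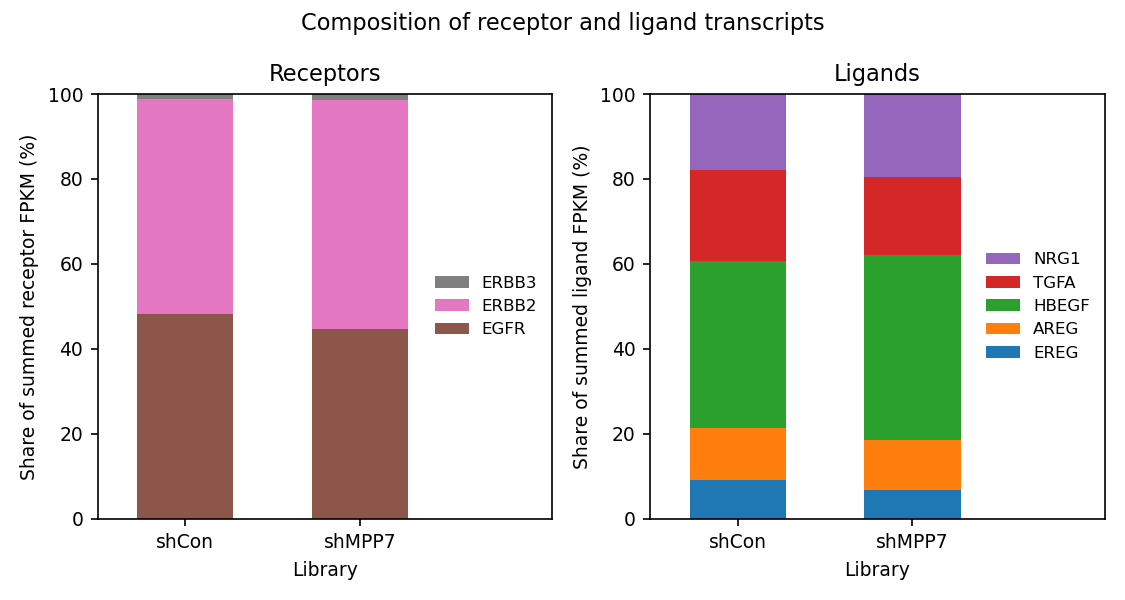
Share of the summed receptor FPKM (left) and of the summed ligand FPKM (right) taken by each gene, in percent, for the shCon and the shMPP7 library. EGFR goes from 48.1% to 44.8% of receptor FPKM, HBEGF from 39.3% to 43.6% of ligand FPKM and EREG from 9.24% to 6.88%.

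The ligands differed more among themselves than the receptors did. EREG was lower, TGFA was lower, HBEGF was higher, and the intervals of AREG and NRG1 included 1. EREG, which encodes epiregulin, had 1203 counts in shCon (1136 to 1273) and 927 in shMPP7 (868 to 989). These intervals lay apart, with a CPM ratio of 0.752 (0.690 to 0.820). Of the 5390 genes with 1000 to under 5000 counts, 1.39% had a ratio as low as that of EREG, and over all 12155 genes tested the share was 3.92%. In FPKM, EREG was at 11.5 and 9.18, and with 1 FPKM added to both values the ratio was 0.812. The longest EREG transcript has 4619 bases and a GC content of 36.1%, and the fitted trend for such a transcript was a log2 ratio of -0.18 out of the -0.41 measured. With that trend removed the ratio of EREG was 0.855 (0.784 to 0.932), still below 1 but no longer past the size rule.

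AREG, which encodes amphiregulin, lies near EREG on chromosome 4 and was close to level in counts. EREG spans positions 74365143 to 74388751 and AREG positions 74445134 to 74455009, both on the plus strand of GRCh38. AREG had 348 counts in shCon (312 to 387) and 350 in shMPP7 (314 to 389), which overlap. Its CPM ratio was 0.982 (0.844 to 1.14). The odds of an AREG count against an EREG count were 1.31 times as high in shMPP7 (1.10 to 1.55), for a pair chosen after the values were seen. With the length and GC trend removed, AREG stood at 0.953 (0.819 to 1.11), an interval that overlaps that of EREG. An older human assembly holds a near-identical copy of AREG under the name AREGB. The table has 0 rows of that name, the build behind it is not settled, and the AREG level is uncertain to that extent.

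The starts of EREG, AREG and HBEGF are shown. EREG and HBEGF lie on different sides of 1 in the comparison, and AREG, near EREG, has an interval that includes 1. The windows run from 250 bases before to 50 bases after the start given by RefSeq on GRCh38.p14, 5′ to 3′ on the gene's own strand. Capitals mark matches on either strand to the cAMP response element (CRE, TGACGTCA), the AP-1 motif (TGANTCA), the GC box (GGGCGG), the CCAAT box (CCAAT) and the TATA box (TATAAA). EREG is at chr4:74364895-74365194 (plus strand), AREG at chr4:74444886-74445185 (plus strand) and HBEGF at chr5:140346554-140346853 (minus strand).
EREG: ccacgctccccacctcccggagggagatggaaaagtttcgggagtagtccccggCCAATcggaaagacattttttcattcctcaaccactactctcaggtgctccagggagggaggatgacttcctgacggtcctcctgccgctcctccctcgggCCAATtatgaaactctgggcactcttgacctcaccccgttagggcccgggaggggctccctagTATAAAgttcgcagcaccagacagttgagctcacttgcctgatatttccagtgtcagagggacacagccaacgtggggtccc
AREG: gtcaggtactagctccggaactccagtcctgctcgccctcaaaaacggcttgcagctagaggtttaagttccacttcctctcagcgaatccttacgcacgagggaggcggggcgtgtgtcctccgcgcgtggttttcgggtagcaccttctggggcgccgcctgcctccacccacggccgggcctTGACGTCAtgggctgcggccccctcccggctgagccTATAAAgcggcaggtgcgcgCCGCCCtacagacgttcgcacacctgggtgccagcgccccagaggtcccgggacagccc
HBEGF: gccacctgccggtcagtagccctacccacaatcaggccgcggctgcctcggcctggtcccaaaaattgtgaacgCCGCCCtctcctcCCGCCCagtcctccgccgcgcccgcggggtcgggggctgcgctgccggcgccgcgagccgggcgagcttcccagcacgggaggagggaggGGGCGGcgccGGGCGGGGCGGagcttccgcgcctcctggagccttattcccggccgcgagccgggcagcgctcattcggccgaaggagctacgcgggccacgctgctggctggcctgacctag
EREG and AREG each hold a TATA box, 32 and 29 bases before the start, as 11.5% of 35116 RefSeq promoter windows do. AREG also holds a CRE 65 bases before the start, a match found in 1.85% of windows, and a GC box. EREG holds no CRE and no GC box but 2 CCAAT boxes, found at least once in 34.6% of windows. HBEGF has no TATA box and 5 GC boxes, of which the last pair overlaps by 1 base, and a GC box occurs in 45.0% of windows. No AP-1 match lies in these windows, where 7.71% of all windows hold one. The GC content was 57.7% for EREG, 66.3% for AREG and 75.0% for HBEGF, beside a median of 58.7% over all windows. These are matches of letters only, and which start the cells used was not tested. Of the 10 genes, 8 had a window in the RefSeq table; ERBB3 and NRG1 had none.

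HBEGF, the heparin-binding ligand that is shed from the surface, was the most abundant ligand transcript and was higher in shMPP7. The gene is at positions 140332843 to 140346631 of chromosome 5 (minus strand). HBEGF had 2492 counts in shCon (2395 to 2592) and 2912 in shMPP7 (2807 to 3020), with no overlap. The CPM ratio was 1.14 (1.08 to 1.20), and 2.53% of genes with 5000 and more counts had a ratio at least as high. FPKM went the same way, from 49.0 to 58.1, and the ratio with the length and GC trend removed was 1.12 (1.06 to 1.18). Against EREG, the odds of an HBEGF count were 1.52 times as high in shMPP7 (1.37 to 1.68), the widest gap among 9 pairs of members that were chosen after their values were seen.

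TGFA, the gene of transforming growth factor alpha, was lower by about as much as EGFR. The gene is at positions 70447280 to 70554193 of chromosome 2 (minus strand). TGFA had 1727 counts in shCon (1647 to 1810) and 1542 in shMPP7 (1466 to 1621), which do not overlap, and a CPM ratio of 0.872 (0.813 to 0.934). In its band of counts, 13.7% of genes had a ratio as low. With the trend removed it stood at 0.906 (0.845 to 0.971).

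NRG1, the gene of the ERBB3 and ERBB4 ligand neuregulin 1, gave different answers in the deposited measures. It lies on chromosome 8, positions 31639386 to 32767959, on the plus strand. In counts it was level, with 970 in shCon (910 to 1033) and 1002 in shMPP7 (941 to 1066), a CPM ratio of 1.01 (0.922 to 1.10). In FPKM it went from 22.4 to 26.1, a ratio of 1.16 with 1 FPKM added. The intervals overlap in counts, while on the FPKM scale (21.0 to 23.8 and 24.5 to 27.8) they do not.

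Over the 5 ligands, the total count was close to equal while its make-up shifted from EREG and TGFA towards HBEGF. The summed ligand counts had a CPM ratio of 0.975 (0.943 to 1.01), and the summed ligand FPKM was 125 in shCon and 133 in shMPP7. Summed over all genes, FPKM was also higher in shMPP7, at 893995 against 831003 in shCon. HBEGF took 37.0% of ligand counts in shCon (35.8% to 38.1%) and 43.2% in shMPP7 (42.1% to 44.4%). EREG took 17.8% (16.9% to 18.8%) and 13.8% (13.0% to 14.6%), and TGFA 25.6% (24.6% to 26.7%) and 22.9% (21.9% to 23.9%). The shares of AREG, 5.16% and 5.20%, and of NRG1, 14.4% and 14.9%, had overlapping intervals. Longer transcripts give more reads, so these shares of counts compare the libraries and do not rank the ligands. The length and GC trend was not removed from these shares.

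The feedback inhibitors were near level. ERRFI1, on chromosome 1, positions 8004404 to 8026308 of the minus strand, had 3831 counts in shCon (3711 to 3954) and 3712 in shMPP7 (3594 to 3833). These intervals overlap, and the CPM ratio was 0.946 (0.904 to 0.990). The interval included 1 under both other scalings of the libraries, at 0.963 (0.920 to 1.01) with TMM factors (trimmed mean of M-values) and 0.969 (0.926 to 1.01) with median-of-ratios factors. In FPKM, ERRFI1 was at 62.7 and 63.0, so its direction was not settled. LRIG1, on chromosome 3, positions 66378797 to 66501263 of the minus strand, had 1941 counts in shCon and 1894 in shMPP7, and its CPM ratio was 0.953 (0.894 to 1.02). In FPKM it went the other way, from 20.1 to 20.9, as did the median over all genes tested (log2 ratio 0.04 with 1 FPKM added). Exons of LRIG1 share 907 bases with SLC25A26 on the opposite strand, which had 295 and 299 counts. Against EGFR counts, the odds of an ERRFI1 count were 1.09 times as high in shMPP7 (1.02 to 1.15) and those of an LRIG1 count 1.09 times as high (1.01 to 1.18). EGFR was already known to be lower when these pairs were chosen, so the odds do not show a rise of the inhibitors. With the length and GC trend removed the CPM ratio of ERRFI1 was 0.981 (0.938 to 1.03) and that of LRIG1 0.951 (0.892 to 1.01), close to the 0.937 of EGFR.

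**Figure D4:**
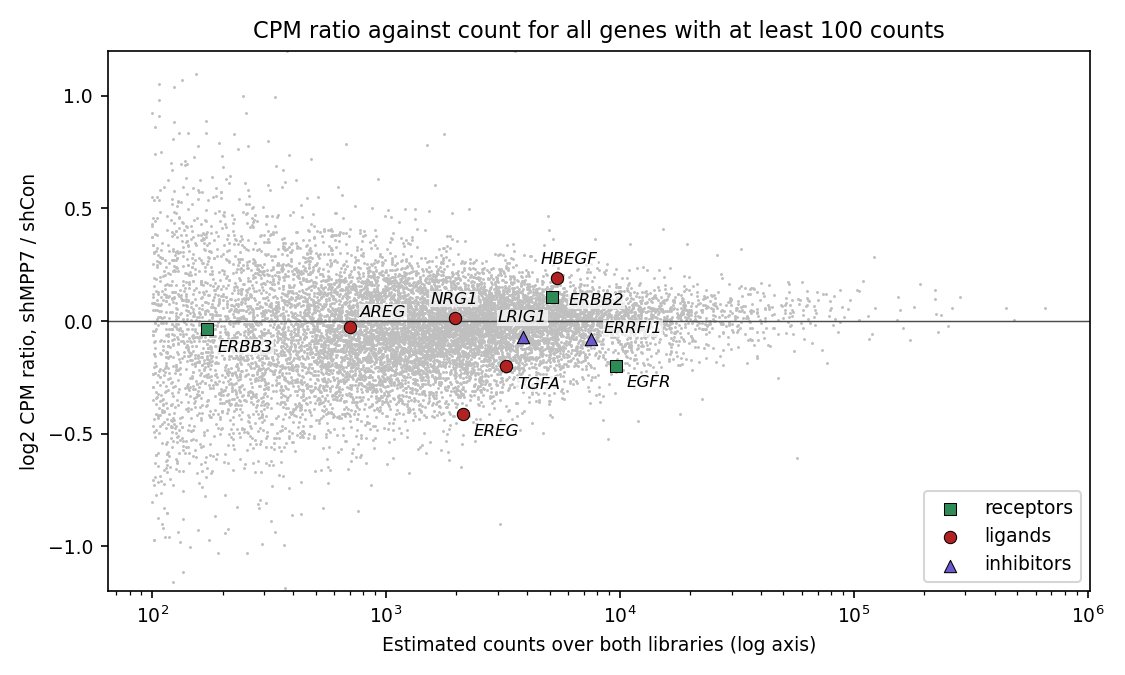
log2 CPM ratio of shMPP7 over shCon against the estimated counts over both libraries (log axis) for genes with at least 100 counts (grey; 17 genes beyond ±1.2 are not drawn), with the receptors as squares, the ligands as circles and the inhibitors as triangles. EREG at -0.41 lies at the lower edge of genes with like counts, and EGFR at -0.20 towards the lower edge. HBEGF at 0.19 lies towards the upper edge, and the remaining members lie within the cloud.

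Count and FPKM of a gene together imply a length, the number of bases at which both would match. It differed between the libraries by more for ERBB3 and NRG1 than for the other members. For ERBB3 it was 5555 bases in shCon and 4099 in shMPP7, a change of -26.2%, so that equal counts of 86 gave FPKM values of 0.647 and 0.856. For NRG1 it was 1812 and 1567 bases, a change of -13.5%, both far from the 5931 bases of the longest of its 22 annotated transcripts. Among the other 8 members the change ran from -8.53% for LRIG1 to 0.98% for ERBB2, and 9 of the 10 members had a shorter implied length in shMPP7. The median change over 12153 genes was -3.98%, with a 5th percentile of -20.6% and a 95th of 15.3%. A change as low as that of ERBB3 occurred in 2.78% of genes and one as low as that of NRG1 in 10.9%. The deposited files do not hold the lengths used for FPKM, and whether other transcript forms were read in the 2 libraries was not tested.

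**Figure D5:**
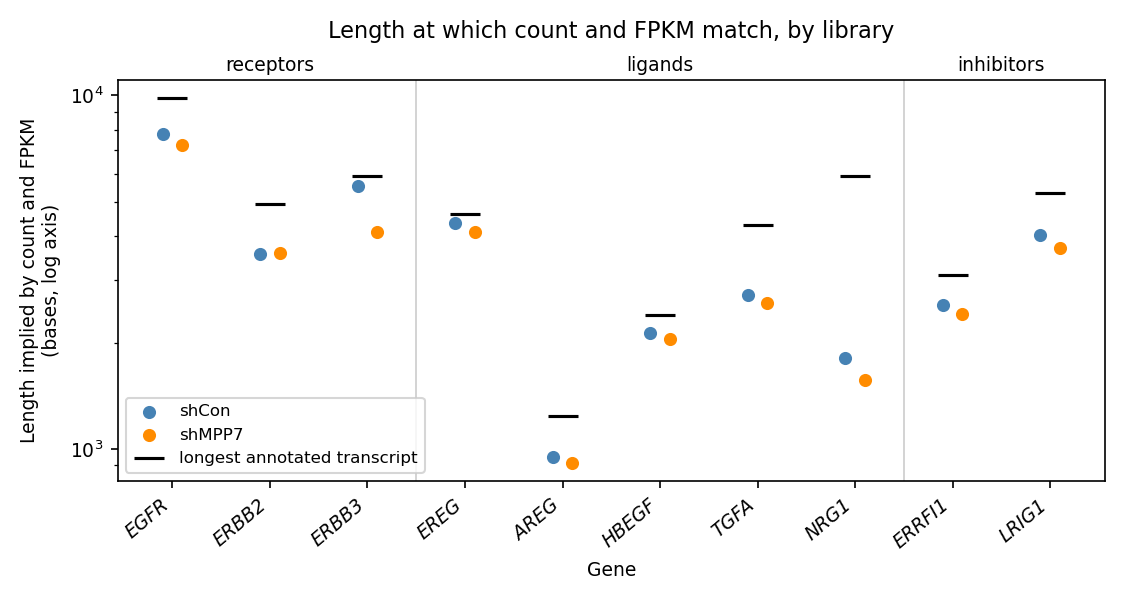
Length in bases (log axis) implied by the count and the FPKM of each gene in the shCon (blue) and shMPP7 (orange) library, with the longest transcript of the annotation as a black bar. The change from shCon to shMPP7 is -26.2% for ERBB3 and -13.5% for NRG1, and the implied length of NRG1 lies far below its longest transcript.

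The rest of the pathway was read from 7 lists with 97 genes, of which 86 had at least 100 counts. Of these 86, 7 (8.14%) were lower in shMPP7 by the size rule and 1 (1.16%) higher, beside 7.47% and 3.06% of all genes. Their intervals lay below 1 for 28 genes (32.6%) and above it for 9 (10.5%), beside 21.5% and 13.8% of all genes. The median log2 CPM ratio was -0.04, and 0.00 with the length and GC trend removed. With the trend removed, 0 of the 86 were lower by the size rule.

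Other ligands and the receptor ERBB4 were low or listed at 0. EGF itself had 57 counts in shCon and 69 in shMPP7, with a ratio of 1.18 (0.820 to 1.71). In FPKM, EGF was at 0.647 and 1.90, a log2 ratio of 0.81 with 1 FPKM added, so that the deposited measures parted for EGF as they did for ERBB3 and NRG1. Betacellulin (BTC) had 29 and 26 counts and NRG2 14 and 18. NRG4 had 3 and 0 counts and ERBB4 1 and 0, so no fold is given, and EPGN and NRG3 were listed at 0 in both. A count of 0 allows up to 3 counts, or 0.125 CPM in shCon and 0.122 CPM in shMPP7.

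Of 11 measured sheddases and their partners, none was past the size rule, beside 7.47% of all genes lower and 3.06% higher. Their intervals lay below 1 for 5 and above 1 for 1, beside 21.5% and 13.8% of all genes. ADAM9 had a CPM ratio of 0.842 (0.805 to 0.881) and ADAM10, which sheds several EGF-family precursors, 0.844 (0.801 to 0.890). With the trend removed the log2 ratio of ADAM10 was 0.00 and that of ADAM9 -0.13. ADAM17, the main sheddase of TGFA, AREG and HBEGF precursors, stood at 0.915 (0.861 to 0.973), but its log2 ratio was 0.06 with the trend removed and its FPKM values were 21.7 and 21.4.

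Of 19 measured adaptors and effectors, 4 had an interval below 1 and 2 above, beside 21.5% and 13.8% of all genes. By the size rule 1 gene was lower, beside 7.47% of all genes. It was PIK3CA, the catalytic subunit of PI3K, at 0.759 (0.664 to 0.863). GRB2, which links the receptors to RAS activation, was at 0.976 (0.932 to 1.02).

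Of 19 measured genes of receptor ubiquitination and endocytosis, 4 were lower by the size rule, beside 7.47% of all genes. They were USP8, a deubiquitinase of endosomal receptors, at 0.776 (0.692 to 0.869), the adaptor gene CD2AP at 0.778 (0.722 to 0.839), the deubiquitinase gene USP9X at 0.794 (0.760 to 0.829) and the endocytic adaptor gene EPS15 at 0.797 (0.734 to 0.865). Intervals below 1 were found for 9 of the 19 measured genes and intervals above 1 for 2, beside 21.5% and 13.8% of all genes, with a median log2 CPM ratio of -0.10. With the trend removed the median was 0.00 and 0 of these genes were lower by the size rule. In FPKM with 1 added, none of the 4 was past the size rule, with log2 ratios of -0.05 for USP8, -0.21 for USP9X, -0.24 for CD2AP and -0.27 for EPS15. CBL, the ligase that marks EGFR for degradation, was at 0.892 (0.839 to 0.948).

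Intervals below 1 were found for 6 of 10 measured receptor phosphatases and above 1 for none, beside 21.5% and 13.8% of all genes, with a median log2 CPM ratio of -0.12, and -0.07 with the trend removed. PTPRG was lower by the size rule, at 0.776 (0.727 to 0.829), where 7.47% of all genes were. Its log2 ratio was -0.15 in FPKM with 1 added and -0.21 with the trend removed, neither past the size rule. Among 7 measured genes of other receptor-level inhibitors, intervals lay below 1 for 2 and above 1 for 0, beside the same 21.5% and 13.8%. SOCS4 was lower by the size rule, at 0.745 (0.671 to 0.826), where 7.47% of all genes were. Its log2 ratio was -0.33 in FPKM with 1 added, and -0.19 with the trend removed, which is not past the size rule. LRIG3, a relative of LRIG1, stood at 0.992 (0.827 to 1.19).

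The output genes that ERK signalling induces were near level. Intervals below 1 were found for 2 of 19 measured genes and above 1 for 4, beside 21.5% and 13.8% of all genes. The median log2 CPM ratio was 0.04. By the size rule 0 were lower and 1 higher, beside 7.47% and 3.06% of all genes. EGR1, the immediate early transcription factor gene, had 103 counts in shCon and 137 in shMPP7 and was the single gene past the size rule on the higher side, at 1.30 (0.998 to 1.69), an interval that includes 1. SPRED1, an inhibitor of RAS-ERK signalling, was at 0.832 (0.769 to 0.901), with a log2 ratio of -0.07 after the trend was removed. The other gene with an interval below 1 was DUSP4, at 0.949. Those with an interval above 1 were MYC at 1.11, DUSP6 at 1.10, IER3 at 1.07 and FOSL1 at 1.06.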

How the data were processed

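Total RNA of 1 shCon and 1 shMPP7 library was measured, grouped by the genotype label. The deposited table gives estimated counts and FPKM per gene, per the file headers; of values above 0, 71.8% and 73.0% of the counts were whole. TopHat2 2.0.9, Cuffdiff and hg19 are named, without roles, per the submitters' processing notes, and no source used here names the counting tool. GENCODE 29 (GRCh38) holds 99.4% of the gene IDs, so the build is unsettled. Positions and transcript lengths come from GENCODE 29 and promoter windows from RefSeq.

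The members and gene lists were chosen with earlier results of these data known. Of rows sharing a name, the one with the largest count was used. CPM is the count over the library total, 23928620 and 24513089. Exact 95% intervals of CPM ratios (Clopper-Pearson, conditional on the summed count) used rounded counts, and reads without molecular identifiers are not independent molecules, so intervals and the floor of 3 counts cover counting error only. No p-value was computed. The size rule (a ratio of 0.8 or less, or 25% or more above 1) was applied to genes with at least 100 counts. A quadratic trend on log length and GC content over 11367 protein-coding genes was subtracted as an alternative, and further ones changed the unit, pseudocount, scaling (edgeR 4.0.16 TMM factors), minimum, size rule and treatment of shared names. Named were all members, MPP7, markers and, in each list, genes past the size rule whose interval left out 1, or else the 2 largest ratios; the other genes were named after their values were seen. Interval code was tested on simulated data. Python 3.11.15 and scipy 1.17.1 were used.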

Additional observations from a re-analysis of the deposited data

How the results depend on the processing

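With 1 library per group no library could be left out. No paired analysis was possible because each group has a single library. EREG, the member lower by the size rule in CPM, was past it in CPM under both other scalings, and in FPKM with 0.1 added (ratio 0.798). The count of such members was 0 in FPKM with 1 added, 0 with the length and GC trend removed and 0 with a 1.5-fold rule. In FPKM with 0.1 added 1 member, ERBB3, was higher by that rule (1.28). ERRFI1 turned from lower to level or higher in FPKM, at 1.00 with either pseudocount, and LRIG1, whose interval included 1 in CPM, stood at 1.04 in FPKM. Members with an interval below 1 numbered 3 in place of 4 with TMM scaling, median-of-ratios scaling or the trend removed, and those above 1 remained at 2 in number. EGFR was at 0.94 in FPKM with 1 added and 0.937 with the trend removed. The median log2 ratio of the members was 0.04 in FPKM, where that of all genes tested was also 0.04, and -0.03 with TMM scaling. FPKM was thus shifted upwards in shMPP7 for genes in general, and the FPKM ratios of the members carry that shift. In the pathway lists, 7 genes lower and 1 higher became 3 and 3 in FPKM with 1 added, 3 and 4 with 0.1 added, 0 and 0 with a 1.5-fold rule and, in an alternative chosen after seeing the data, 0 and 2 with the trend removed. The causes were not tested, apart from the trend and the size rule, which act by construction. Depth limits ERBB3 most, whose interval runs from 0.715 to 1.33.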

Other observations

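EREG and AREG lie near the chemokine genes of chromosome 4, and within 500000 bases on either side of the pair 5 other genes had at least 100 counts. CXCL1, a neutrophil attractant, was higher in shMPP7, with 2221 counts in shCon, 2933 in shMPP7 and a ratio of 1.29 (1.22 to 1.36). CXCL3 stood at 1.24 (1.01 to 1.52) and CXCL2 at 1.09 (0.923 to 1.29). MTHFD2L, the nearest of these genes before EREG, was at 0.918 (0.779 to 1.08) and PARM1, beyond AREG, at 1.09 (0.902 to 1.31). EREG, of the pair around which the window was drawn, was the only one of these 7 genes with an interval below 1, beside 21.5% of all genes with at least 100 counts. Intervals lay above 1 for CXCL1 and CXCL3, beside 13.8% of all genes. CXCL1 alone was higher by the size rule, beside 3.06% of all genes. These genes were named by position after the values of EREG were known.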
